A study of Oryza sativa and Arabidopsis thaliana with 24 samples.

Results

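Flowers of Arabidopsis thaliana were compared with 3 vegetative tissues of the same species, the rosette leaf, the stem leaf and the stem, for the abundance of tRNAs and of the short fragments cut from them. The comparison took every library labelled with one of these 4 tissues, 2 per tissue, which made 8 of the 24 libraries of a study on tRNA-derived fragments in Arabidopsis and rice. The 2 silique libraries entered the statistical fit for the estimate of the spread and took no part in the contrast. All plants were untreated and grown in soil at 23 °C under long days of 16 h light and 8 h darkness. Total RNA was extracted with TRIzol and pretreated with a kit made for tRNA fragments before the small RNA libraries were built. The series text calls the libraries of a tissue biological replicates. The labels do not give the flower stage, the plant age or the number of plants per library. The tables hold tRNAs and their fragments and no tissue marker, so the tissue labels were not checked against one.

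Plant cells carry tRNAs from 3 genomes, in the nucleus, the plastids and the mitochondria. Plastids translate part of the photosynthetic machinery and are numerous in green tissue. Cleavage yields tRF-5 and tRF-3 fragments, which begin at the 5′ end or finish at the 3′ end of the tRNA, and the longer tiRNAs, which are cut in the anticodon loop and which the tables call 5'-halves and 3'-halves. A tRNA is named here by the amino acid and anticodon that the deposited tables give it, with their identifier. Modified bases in tRNA can be misread by reverse transcriptase, so that a fragment sequence differs from the gene at that base.

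The sequences below carry the main results among fragments of nuclear tRNAs. Each line is the mature tRNA from 5′ to 3′, with the CCA tail, as the deposited tables give it, and the capitals mark the fragment that was measured. The first 4 are 5'-halves that were higher in flower than in each vegetative tissue, Glu-TTC and Gly-TCC give the most abundant fragments, and Ser-AGA and Ala-AGC give fragments that were abundant in stem. Some of these sequences are shared, the Tyr-GTA and Asp-GTC fragments by 3 tRNAs each, Ser-AGA by 6 and Ala-AGC by 2.
nuclear Tyr-GTA, at_tR206, 36 nt: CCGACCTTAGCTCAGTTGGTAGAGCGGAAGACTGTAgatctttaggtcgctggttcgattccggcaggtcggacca
nuclear His-GTG, at_tR94, 36 nt: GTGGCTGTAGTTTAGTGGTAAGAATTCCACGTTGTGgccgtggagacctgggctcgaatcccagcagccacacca
nuclear Asp-GTC, at_tR44, 35 nt: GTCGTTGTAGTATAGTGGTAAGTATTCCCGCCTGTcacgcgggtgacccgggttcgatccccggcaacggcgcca
nuclear Gln-CTG, at_tR66, 36 nt: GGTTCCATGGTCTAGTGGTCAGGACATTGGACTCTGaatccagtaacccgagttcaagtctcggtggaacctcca
nuclear Glu-TTC, at_tR77, 33 nt: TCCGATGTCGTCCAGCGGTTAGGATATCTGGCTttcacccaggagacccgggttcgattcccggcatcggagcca
nuclear Gly-TCC, at_tR92, 35 nt: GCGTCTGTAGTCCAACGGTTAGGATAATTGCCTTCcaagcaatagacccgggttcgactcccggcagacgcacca
nuclear Ser-AGA, at_tR160, 23 nt: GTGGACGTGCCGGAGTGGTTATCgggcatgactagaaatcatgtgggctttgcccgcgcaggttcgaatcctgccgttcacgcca
nuclear Ala-AGC, at_tR1, 20 nt: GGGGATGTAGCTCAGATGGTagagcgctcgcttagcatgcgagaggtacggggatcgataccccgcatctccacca

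Of the 38 plastid sequences called lower in flower than in each vegetative tissue, 23 were tRF-5 and 9 tRF-3, out of 471 and 481 tested. The next set shows 5 plastid fragments from the 3′ side that were among the lowest in flower relative to the vegetative tissues. In the tyrosine, serine and leucine tRNAs, which have a long variable arm, they begin within that arm.
plastid Tyr-GTA, at_tR219, 36 nt: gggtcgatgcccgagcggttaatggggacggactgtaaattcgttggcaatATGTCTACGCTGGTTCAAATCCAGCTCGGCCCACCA
plastid Ser-GCT, at_tR180, 37 nt: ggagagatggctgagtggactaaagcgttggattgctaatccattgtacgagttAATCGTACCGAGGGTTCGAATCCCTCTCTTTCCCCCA
plastid Ser-TGA, at_tR188, 40 nt: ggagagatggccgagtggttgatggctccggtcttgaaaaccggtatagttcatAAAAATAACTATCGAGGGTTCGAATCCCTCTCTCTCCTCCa
plastid Leu-TAG, at_tR123, 35 nt: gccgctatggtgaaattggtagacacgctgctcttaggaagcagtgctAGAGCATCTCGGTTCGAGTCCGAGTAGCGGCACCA
plastid Gln-TTG, at_tR70, 32 nt: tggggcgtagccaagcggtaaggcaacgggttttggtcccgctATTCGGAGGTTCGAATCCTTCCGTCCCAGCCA

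3 measures were deposited for each library. The first is the signal of each tRNA, the second the total of all fragments assigned to each tRNA (tRF total), and the third the level of each listed fragment sequence. All are in RPM, reads scaled to a fixed library sum, on a log2 scale, and the RPM values below were taken back from that scale. Within the 8 libraries the tRNA table held 20339 to 232097 reads, the tRF totals 259630 to 1536470 reads and the listed fragments 222438 to 1293518 reads. The flower libraries were the deepest in each table, and the second library of a tissue held 1.48 to 1.60 times the reads of the first. tRF totals sum to 1000000 RPM in every library, so a lower share of one origin raises the others. The tRNA signal sums to less and by amounts that differ between tissues. Its sum was 313571 and 330709 RPM in flower and 160329 and 171745 RPM in rosette leaf. In stem leaf it was 326760 and 338521 RPM and in stem 509634 and 507311 RPM. Levels of the tRNA signal were not compared with levels of fragments. Nearly identical tRNA copies can share reads, and values of single copies in such families are uncertain. A fragment shared by several tRNAs can stand above the tRF total of a tRNA that carries it, as for aspartate at_tR44 below. The totals thus do not count every shared read in full.

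Plastid tRNAs made up a much smaller part of the signal in flower than in the vegetative tissues. Their share of the tRNA signal was 33.6% and 33.7% in the flower libraries, 71.4% and 71.1% in rosette leaf, 71.4% in both stem leaf libraries, and 48.2% and 47.5% in stem. The flower values lay below all 6 vegetative values, by 29.9 percentage points on average. Plastid tRNAs also gave fewer of the fragments, with 12.04% and 12.09% of the tRF totals in flower, 31.2% and 31.1% in rosette leaf, 31.5% and 31.4% in stem leaf, and 21.5% and 21.6% in stem. These are shares, which do not show whether plastid tRNA fell in absolute amount. Whole organs were sampled, so fewer plastid-rich cells and less plastid tRNA per cell cannot be told apart either.

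The mitochondrial share moved the other way. It was 4.81% and 4.87% of the tRNA signal in flower, against 1.63% and 1.58% in rosette leaf, 1.31% and 1.35% in stem leaf and 1.73% in both stem libraries. Among tRF totals it was 0.343% and 0.314% in flower and 0.178% to 0.214% in the vegetative libraries. Flower lay above every vegetative library in both measures. For these 4 shares the exact permutation test over the 28 possible choices of 2 libraries among 8 gave its smallest value, p = 0.0357 (two-sided). Adjusted over the 11 shares tested, the exact p was 0.0786 for each of them, so none passed 0.05.

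**Figure D1:**
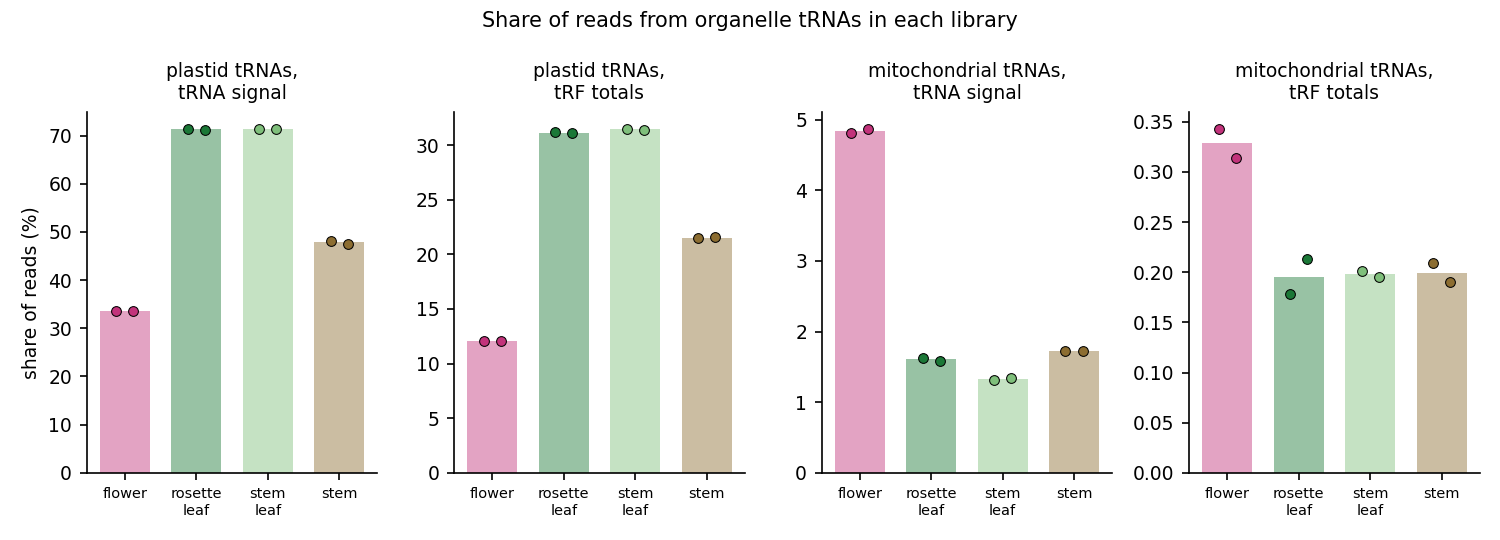
Share of the tRNA signal and of the tRF totals, in percent, that came from plastid and from mitochondrial tRNAs in flower and the 3 vegetative tissues. Bars are means of 2 libraries and points are the libraries. Flower has the lowest plastid and the highest mitochondrial share in both measures.

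At the level of tRF totals, most nuclear tRNAs gave more fragments in flower and most plastid tRNAs fewer. Of 226 tRNAs tested with limma on log2(RPM + 1), 116 (51.3%) were higher and 52 (23.0%) lower than the mean of the 3 vegetative tissues at an adjusted p under 0.05. A stricter call, against each tissue, needed the same direction against all 3 vegetative tissues. It took the largest of the 3 limma p, which was adjusted over all tRNAs tested and had to be under 0.05. By it 45 tRNAs (19.9%) were higher and 20 (8.85%) lower. The median log2 difference over all 226 was 0.49. When every library was centred on its own median, 80 were higher and 73 lower, and 27 were higher and 31 lower than each tissue. By origin, 105 of 177 nuclear totals were higher and 26 lower, with a median of 0.55. Among 30 plastid totals 26 were lower and 1 higher, with a median of -1.09. Among 19 mitochondrial totals 10 were higher, near the share of all totals, with a median of 1.04, and 2 were higher than each tissue. With nuclear tRNAs alone, rescaled to their own sum, 79 were higher and 42 lower, fewer gains than against the sum of all origins. Rescaled in that way, 24 nuclear totals were higher and 11 lower than in each tissue, against 43 and 2 before.

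**Figure D2:**
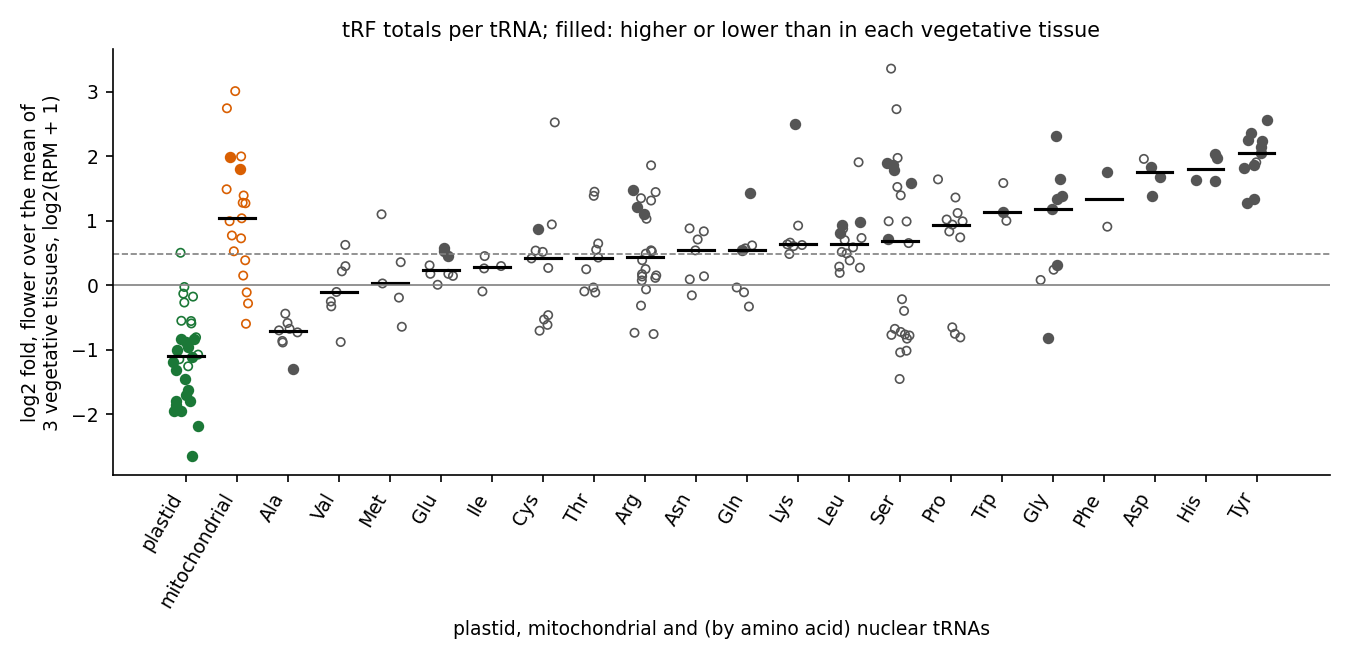
Log2 difference of the tRF total between flower and the mean of the 3 vegetative tissues, by nuclear amino acid family and for plastid and mitochondrial tRNAs. Each point is one tRNA, filled where it passed the limma test against each of the 3 tissues, black lines are family medians and the dashed line is the median of all tRNAs. Tyrosine, histidine and aspartate tRNAs lie above the dashed line and most plastid tRNAs below 0.

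Fragments of nuclear tyrosine, histidine, aspartate and Arg-TCG tRNAs stood above every vegetative tissue in most or all members of their families. Of 11 tyrosine totals tested, 10 were higher in flower than in each tissue, with a family median of 2.05. The same held for 4 of 4 histidine totals, 3 of 4 aspartate totals and 2 of 2 Arg-TCG totals, with medians of 1.81, 1.76 and 1.35. These 3 last counts were equal under both other scalings, while the tyrosine count was 8 after nuclear rescaling and 7 after median centring. As a share of all nuclear tRF signal, tyrosine fragments were 3.19% in flower against 1.37%, 1.38% and 1.82% in rosette leaf, stem leaf and stem. Histidine fragments were 1.15% against 0.592%, 0.368% and 0.353%, and aspartate fragments 1.71% against 1.05%, 0.917% and 0.356%.

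The main tyrosine tRNA, at_tR206, is encoded at 14 nuclear loci. Its tRF total was 13698 and 13469 RPM in flower, 4856 and 4625 in rosette leaf, 4835 and 5045 in stem leaf, and 7484 and 7451 RPM in stem. Both flower values exceeded all 6 others, and the log2 difference was 1.28 (SE 0.03, limma adjusted p = 5.95e-14). A second tyrosine tRNA, at_tR217, comes from a single gene with an intron, AT3G10415, on chromosome 3 from 3238367 to 3238456 (TAIR10, minus strand). It gave 1144 and 1106 RPM in flower against 65.1 and 77.3 in rosette leaf, 256 and 263 in stem leaf and 320 and 413 RPM in stem. The log2 difference was 2.57 (SE 0.17, limma adjusted p = 4.51e-09), and ranges without overlap were a condition for the 8 greatest gains. Of the 8 totals with the greatest gain, 5 more were tyrosine copies, at_tR207, at_tR208, at_tR210, at_tR212 and at_tR215, with 166 to 291 RPM in flower and log2 differences of 2.05 to 2.36. Those copies are nearly identical and their 5 values are not independent.

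The nucleus and the plastid each encode a histidine tRNA with the GTG anticodon, and these went in opposite directions. The nuclear total of at_tR94, from 6 loci, was 6543 and 6123 RPM in flower, 3050 and 2657 in rosette leaf, 1811 and 1772 in stem leaf, and 1849 and 1609 RPM in stem. The log2 difference was 1.62 (SE 0.06, limma adjusted p = 1.44e-11). The plastid total of at_tR98 was 1666 and 1685 RPM in flower and 3878 to 9554 RPM in the vegetative libraries, a log2 difference of -1.86 (SE 0.05, limma adjusted p = 6.26e-14). Tyrosine showed the same opposition, as the plastid at_tR219 below has the anticodon of at_tR206. It is not particular to histidine and tyrosine, since 26 of 30 plastid totals were lower and 105 of 177 nuclear totals higher.

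The aspartate tRNA at_tR44, from 21 loci, gave 6031 and 6136 RPM in flower. It gave 3989 and 4059 in rosette leaf, 2421 and 2480 in stem leaf, and 1259 and 1329 RPM in stem. Flower again lay above every other library, with rosette leaf nearest (log2 difference 1.38, SE 0.05, limma adjusted p = 3.93e-12). For Arg-TCG at_tR25 the flower values of 1416 and 1323 RPM stood above the vegetative range of 518 to 781 RPM (log2 difference 1.22, SE 0.08, limma adjusted p = 7.83e-09).

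Gly-GCC tRNAs were higher in flower for 6 of 7 totals, 5 of them against each tissue, and 3 against each tissue after nuclear rescaling. The single-gene tRNA at_tR83 (AT1G04320, chromosome 1 from 1159023 to 1159093, plus strand) gave 9294 and 9048 RPM in flower and 7491 and 7164 RPM in rosette leaf. In stem leaf it gave 1079 and 1136 RPM and in stem 782 and 764 RPM, so flower and rosette leaf were close and both far above the stem tissues. Its log2 difference was 2.31 (SE 0.05, limma adjusted p = 2.06e-14). The multicopy at_tR84 had the same order, with 14920 and 15290 RPM in flower, 11302 and 11643 RPM in rosette leaf and 4149 to 4449 RPM in the other 4 libraries. The remaining member of the 8 greatest gains was Lys-CTT at_tR126 (AT4G25435, chromosome 4), at a low level of 46.6 and 63.1 RPM in flower against 3.43 to 12.9 RPM.

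**Figure D3:**
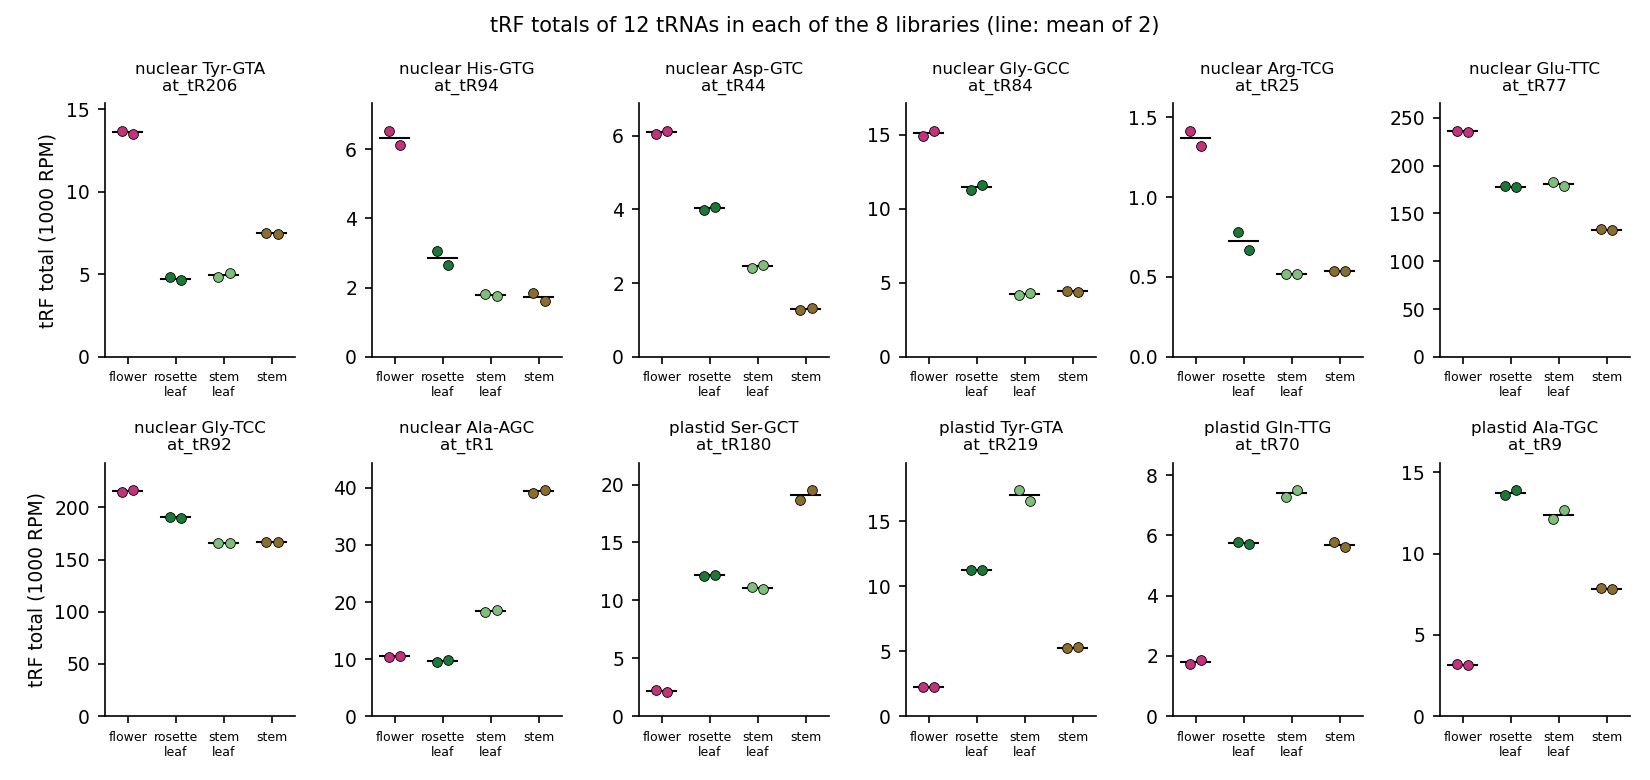
tRF totals of 12 tRNAs in each of the 8 libraries, in units of 1000 RPM. Points are libraries, lines are means of 2 and each panel starts at 0. The Tyr-GTA at_tR206, His-GTG at_tR94, Asp-GTC at_tR44 and Arg-TCG at_tR25 totals are highest in flower, Ala-AGC at_tR1 is highest in stem, and the plastid totals at_tR180, at_tR219, at_tR70 and at_tR9 are lowest in flower.

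The 2 most abundant fragment sources gained less. Glu-TTC at_tR77, from 6 loci, accounted for 236651 and 235567 RPM in flower, against 178462 and 177395 in rosette leaf, 183018 and 178983 in stem leaf, and 134014 and 132198 RPM in stem. Gly-TCC at_tR92, from 12 loci, accounted for 215195 and 216950 RPM in flower and for 165501 to 190696 RPM in the vegetative libraries. Both exceeded every vegetative library, with log2 differences of 0.54 (SE 0.01) and 0.31 (SE 0.01) and limma adjusted p of 1.69e-15 and 2.40e-14. Of the nuclear signal alone, however, Glu-TTC fragments were 40.2% in flower against 37.3%, 41.5% and 26.5%, so stem leaf was slightly higher. Gly-TCC fragments were 24.7% against 27.8%, 24.3% and 21.3% of nuclear signal, below rosette leaf. After median centring the Gly-TCC difference turned to -0.04 (limma adjusted p = 0.399).

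Alanine and some serine tRNAs gave fewer fragments in flower than the vegetative mean, with the highest mean totals in stem. All 8 alanine totals were lower than the mean, with a median of -0.71, but 1 was lower than each tissue, and 7 after nuclear rescaling. For Ala-AGC at_tR1 the totals were 10445 and 10553 RPM in flower, 9414 and 9753 in rosette leaf, 18309 and 18569 in stem leaf, and 39106 and 39676 RPM in stem. Flower was thus just above rosette leaf and far below stem. Ser-AGA fragments followed that order, with 3.84% of nuclear tRF signal in flower, 3.50% in rosette leaf, 9.82% in stem leaf and 17.3% in stem. Of 10 Ser-AGA totals tested 7 were lower and 1 higher than the vegetative mean.

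The other nuclear families are to be read against all nuclear totals, of which 105 of 177 were higher and 26 lower. Leucine had 10 of 14 higher, proline 8 of 11, glutamate 7 of 8, lysine 5 of 7 and threonine 5 of 9, with none lower. Arginine, with 13 higher and 3 lower of 22, was near the share of all nuclear totals. Glutamine had 4 higher and 1 lower of 7, cysteine 7 and 4 of 11, and valine 1 of 7 in each direction. After nuclear rescaling 79 nuclear totals were higher and 42 lower. Leucine then stood at 7 higher and proline at 8 higher and 2 lower, glutamate was even at 3 and 3, cysteine had 3 higher and 4 lower, and valine had 4 lower. Median centring gave 4 lower and 2 higher glutamate totals. Against each tissue 3 leucine, 3 glutamate and 3 arginine totals were higher, which became 1, 0 and 2 after nuclear rescaling and 0, 0 and 2 after median centring.

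Plastid totals fell in most of the set. Of the 30, 18 were lower in flower than in each vegetative tissue, and the 8 with the greatest fall among all tRNAs were all plastid. Ser-GCT at_tR180 (plastid genome from 7785 to 7872, minus strand) gave 2269 and 2106 RPM in flower, 12142 and 12161 in rosette leaf, 11160 and 11002 in stem leaf, and 18707 and 19547 RPM in stem. Flower stood well below the nearest tissue, stem leaf, with a log2 difference of -2.65 (SE 0.04, limma adjusted p = 1.69e-15). Tyr-GTA at_tR219 (30323 to 30406, minus strand) gave 2216 and 2223 RPM in flower, 11288 and 11229 in rosette leaf, 17436 and 16592 in stem leaf, and 5238 and 5302 RPM in stem. Here stem was the nearest tissue, and the log2 difference was -2.18 (SE 0.04, limma adjusted p = 2.38e-15).

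The other 6 differed by -1.95 to -1.69 on the log2 scale. They were Met-CAT at_tR102, Ile-GAT at_tR104, His-GTG at_tR98, Gln-TTG at_tR70, Ala-TGC at_tR9 and Leu-TAG at_tR123. Ile-GAT at_tR104 was the most uneven, with 205 and 216 RPM in flower, 2882 and 2988 RPM in rosette leaf, and 359 to 524 RPM in stem leaf and stem. Its 2 plastid loci and those of Ala-TGC at_tR9 each carry an intron. Ala-TGC at_tR9 gave 3207 and 3142 RPM in flower against 7795 to 13929 RPM. Both flower libraries were below all others, which was a condition for the greatest falls.

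In the tRNA signal, the 6 tRNAs lower in flower than in each tissue were all plastid, while those higher than in each tissue were mitochondrial or nuclear. Of 200 tRNAs tested with limma, 78 (39.0%) were higher and 18 (9.0%) lower than the vegetative mean, and 15 (7.5%) were higher and 6 (3.0%) lower than each tissue. The median log2 difference was 1.42, so much of the gain was shared by the table, and median centring left 17 higher and 39 lower, with 2 and 18 against each tissue. Leaving out flower replicate 2 lowered the 78 to 50, and leaving out flower replicate 1 lowered it to 52. Mitochondrial tRNAs had a median of 2.12, with 10 of 19 higher, and plastid tRNAs a median of -0.56, with 17 of 30 lower. After median centring the mitochondrial median was 0.87, with 4 higher and 2 lower, and the plastid median -1.82, with 22 lower.

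Among tRNAs higher than in each tissue with a mean of at least 10 RPM over the 8 libraries, the 2 greatest gains were mitochondrial. 5 nuclear tRNAs below that level, listed after their values were seen, had means of 5.53 to 30.0 RPM in flower and 0 to 1.32 RPM in each vegetative tissue. They were Met-CAT at_tR139, Cys-GCA at_tR53, Gly-GCC at_tR89, Ser-GCT at_tR178 and Ser-AGA at_tR161, and no fold is given for so few reads. In stem a single read was worth 16.9 to 25.1 RPM, so tRNAs at such levels could have gone undetected there. These 5 are among the 15 calls against each tissue, and with a filter of 10 RPM over the 10 libraries 10 were higher than each tissue. Mitochondrial Tyr-GTA at_tR221 was 2133 and 2213 RPM in flower, 136 and 151 in rosette leaf, 188 and 366 in stem leaf, and 351 and 607 RPM in stem (log2 difference 3.06, SE 0.30, limma adjusted p = 4.54e-05). Mitochondrial Pro-TGG at_tR158 was 3970 and 4313 RPM in flower and 193 to 1278 RPM elsewhere (log2 difference 2.71, SE 0.16, limma adjusted p = 1.72e-06). Both kept an adjusted p under 0.05 after median centring, at log2 differences of 1.81 and 1.45. Nuclear Tyr-GTA at_tR206 also rose in this table, from 343 to 952 RPM in the vegetative libraries to 2807 and 3031 RPM in flower. Its log2 difference was 2.27 (SE 0.13, limma adjusted p = 1.70e-06) and 1.31 after nuclear rescaling, so the tyrosine tRNA was higher both as tRNA and as fragments.

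3 further nuclear tRNAs are given here beside their fragment totals. Ser-AGA at_tR160 was 1743 and 1981 RPM of tRNA signal in flower against 132 to 902 RPM elsewhere (log2 difference 2.12, SE 0.22, limma adjusted p = 6.99e-05), while its fragment total was lower than the vegetative mean (log2 difference -0.78). Histidine at_tR94, higher in every comparison as fragments, was 6429 and 6693 RPM of tRNA signal in flower and 6264 and 7050 RPM in stem, so these overlapped. Its log2 difference of 0.78 turned to -0.47 after median centring and -0.18 after nuclear rescaling. Aspartate at_tR44 was higher than each tissue in both measures, and its signal differed from the vegetative mean (log2 difference 1.74, SE 0.33, limma adjusted p = 0.00261), though not after median centring (0.49, limma adjusted p = 0.336) or nuclear rescaling (0.78, limma adjusted p = 0.127), and leaving out flower replicate 2 raised the limma adjusted p to 0.0658.

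The most abundant tRNA by signal in flower, nuclear Gln-CTG at_tR65, had 51206 and 52829 RPM there, 7590 and 8562 in rosette leaf, 26020 and 25340 in stem leaf, and 93538 and 95647 RPM in stem. Flower stood between the leaves and the stem.

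The plastid tRNA Ser-TGA at_tR188 had the deepest fall, from 11512 and 11860 in rosette leaf, 58355 and 61058 in stem leaf and 20522 and 19109 RPM in stem to 4362 and 4715 RPM in flower. The log2 difference was -2.40 (SE 0.06, limma adjusted p = 2.38e-08). Ser-GCT at_tR180, Ala-TGC at_tR9, Ile-GAT at_tR104, Val-GAC at_tR228 and Ser-GGA at_tR182 were also lower than in each tissue. Plastid Glu-TTC at_tR80, whose charged form also feeds chlorophyll synthesis, did not separate, with 9913 and 10078 RPM in flower inside the vegetative range of 4725 to 14737 RPM. Its tRF total was lower than in each tissue, at 2969 and 2804 RPM against 3933 to 6186 RPM.

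Among single fragment sequences, the gains called against each tissue were nuclear and nearly all falls plastid, by calls that needed the trend of the spread with level. Of 5826 sequences tested with limma, 325 (5.58%) were higher and 159 (2.73%) lower than the vegetative mean, and 52 (0.893%) were higher and 41 (0.704%) lower than each tissue. The 52 came from 4304 nuclear sequences tested. They comprised 23 of 1388 tRF-5, 21 of 844 5'-halves, 3 of 1332 tRF-3 and 5 of 740 3'-halves. Among them were 24 of 1038 glutamate sequences (19 from Glu-TTC), 8 of 152 tyrosine and 7 of 252 glutamine sequences. Of the 41, 38 were plastid, out of 1350 plastid sequences tested, with 23 of 471 tRF-5 and 9 of 481 tRF-3 among them. The median difference was 0.49, and it was 0.16 with voom weights on recovered reads and 0.15 with a pseudocount of 5. Median centring gave 135 higher and 257 lower, with 9 and 42 against each tissue. Leaving out flower replicate 1 gave 91 higher and 76 lower, with 23 and 22 against each tissue, and leaving out flower replicate 2 gave 98 and 82, with 23 and 25. Without the trend of the spread with level, limma called 0 against each tissue in either direction, with 195 higher and 66 lower at an unadjusted p under 0.05.

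**Figure D4:**
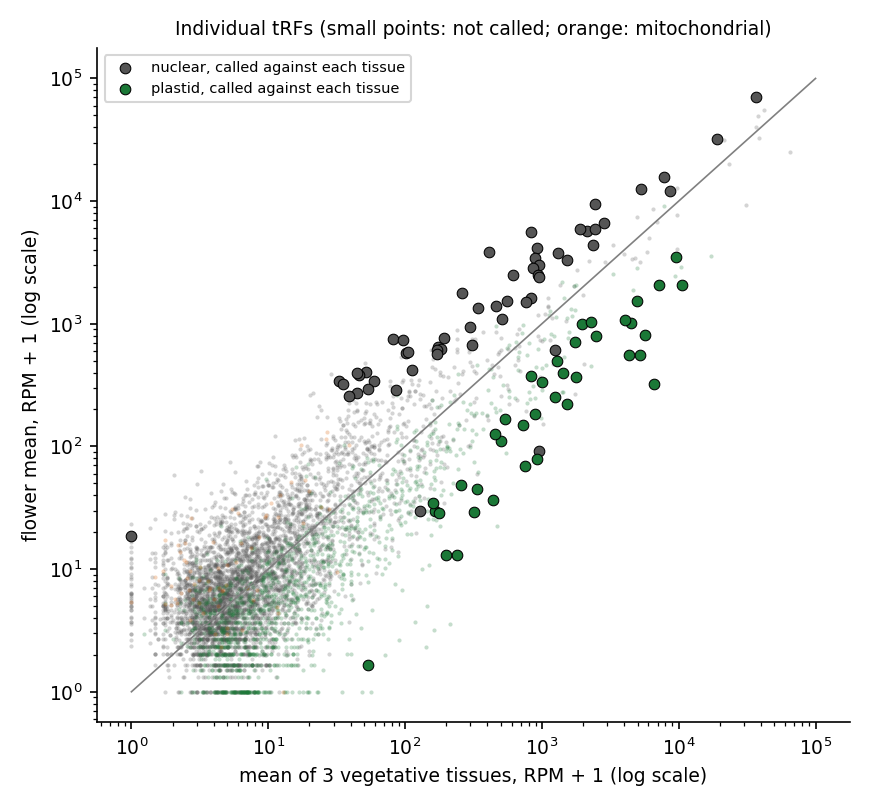
Mean level of each of 5826 fragment sequences in flower against the mean of the 3 vegetative tissues, both as RPM + 1 on log axes. Small points are all sequences, coloured by origin, and large outlined points passed the limma test against each tissue. The grey line marks equal levels. Gains among the outlined points are fragments of nuclear tRNAs and falls are mostly of plastid tRNAs.

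The 36-nt fragment of Tyr-GTA at_tR206, which ends in the anticodon loop, was found at 733 and 763 RPM in flower, 65.1 and 34.3 in rosette leaf, 74.0 and 133 in stem leaf and 100 and 78.6 RPM in stem. Its log2 difference was 3.31 (SE 0.32, limma adjusted p = 7.32e-05). The 36-nt histidine fragment reached 1860 and 1698 RPM in flower and 172 to 377 RPM elsewhere (2.84, SE 0.20, limma adjusted p = 4.58e-06). The 36-nt fragment of the single Gln-CTG gene at_tR66 (AT3G61825, chromosome 3 from 22881807 to 22881878) was at 739 and 721 RPM in flower and at 44.9 to 189 RPM elsewhere (3.09, SE 0.30, limma adjusted p = 8.13e-05). In all 3 cases both flower libraries lay far above every vegetative library.

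Fragments of 35 nt from aspartate tRNA were the most abundant of this kind, with 9478 and 9527 RPM in flower, 2464 and 2706 in rosette leaf, 3619 and 3941 in stem leaf, and 1048 and 842 RPM in stem. The difference was 2.18 on the log2 scale (SE 0.09, limma adjusted p = 8.38e-08). This sequence is shared by 3 aspartate tRNAs. The 33-nt Glu-TTC fragment was the most abundant sequence in flower, at 70276 and 70410 RPM, and was 45925 and 46378 in rosette leaf, 41040 and 40366 in stem leaf and 22289 and 23388 RPM in stem. Its log2 difference was 1.01 (SE 0.02, limma adjusted p = 1.34e-10). Without the trend of the spread with level, its adjusted p was 0.16.

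The short Ser-AGA fragment of 23 nt was at 24774 and 25513 RPM in flower, above rosette leaf with 14421 and 14509 RPM. It was far below stem leaf with 59235 and 61132 RPM and stem with 117995 and 121255 RPM. The Ala-AGC fragment of 20 nt had the same order, with 9307 and 9310 RPM in flower and 7379 to 60427 RPM elsewhere. Both were lower than the vegetative mean, by log2 differences of -0.90 and -1.29 (limma adjusted p = 8.24e-10 and 1.34e-10), and neither was lower than rosette leaf. Without the trend their limma adjusted p was 0.197 and 0.0895.

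Fragments from the 3′ side of plastid tRNAs made up 6 of the 8 greatest falls among sequences. The 36-nt tRF-3 of plastid Tyr-GTA at_tR219 was at 295 and 349 RPM in flower, 5343 and 5057 in rosette leaf, 11717 and 11213 in stem leaf, and 3108 and 3112 RPM in stem. This is a log2 difference of -4.15 (SE 0.12, limma adjusted p = 5.60e-09), beyond that of the tRNA's total. The 37-nt tRF-3 of Ser-GCT at_tR180 was at 35.2 and 35.8 RPM in flower and 220 to 630 RPM elsewhere (-3.47, SE 0.19, limma adjusted p = 6.75e-07). The tRF-3 of Leu-TAG at_tR123 and of Gln-TTG at_tR70 were at 71.6 to 83.9 RPM and at 66.3 and 70.3 RPM in flower, against 535 to 1573 RPM and 588 to 1086 RPM. The 32-nt tRF-5 of Val-GAC at_tR228 had no read in flower replicate 1 and 1.302 RPM in flower replicate 2, against 14.7 to 89.1 RPM in the vegetative libraries, and no fold is given for so few reads.

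By class of fragment, flower differed from the other tissues in the 3'-halves. These made up 4.75% and 4.59% of the listed fragment signal in flower, 3.15% and 3.13% in rosette leaf, 3.77% and 3.76% in stem leaf, and 2.96% and 2.84% in stem (exact permutation p = 0.0357, adjusted 0.0786). Flower was above all 6 vegetative libraries, but the difference turned from 1.40 to -0.17 percentage points when fragments with a mismatch to the tRNA were left out. The shares of tRF-5, tRF-3 and 5'-halves were 54.8%, 4.56% and 35.9% in flower and lay within the vegetative range, with exact permutation p between 0.393 and 0.679. Fragments of 28 nt and longer made up 72.5% and 72.0% in flower, 66.2% to 67.7% in the leaves and 50.1% and 49.3% in stem. Those of 21 to 23 nt were least frequent in flower, at 5.27% and 5.34%, and most frequent in stem, at 17.4% and 17.7% (exact permutation p = 0.0714 for both, adjusted 0.112).

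Sequences that differ from the tRNA at 1 base were more frequent in flower, a pattern chosen after its values were seen. They were 9.53% and 9.04% of the fragment signal in flower, 6.76% and 6.44% in rosette leaf, 6.51% and 6.14% in stem leaf, and 6.86% and 6.33% in stem. Of 1402 such sequences in the 3′ classes, 1331 had the mismatch at base 19 counted from the 3′ end with the CCA tail, and all were nuclear. That set was 5.83% and 5.70% of the signal in flower and 3.16% to 3.76% in the vegetative libraries. Of the 1331, 95 were higher and 4 lower than the vegetative mean by limma, against 309 and 29 of all 4304 nuclear sequences, so single sequences of the set were called higher about as often as nuclear sequences at large. 3 of them are shown because they were among the 8 greatest gains, and the capital marks the base that differs from the tRNA.
from nuclear Tyr-GTA, at_tR206, 31 nt: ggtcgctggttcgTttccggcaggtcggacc
from nuclear Trp-CCA, at_tR201, 19 nt: gTttcacgtcgggttcacc
from nuclear Gln-CTG, at_tR65, 39 nt: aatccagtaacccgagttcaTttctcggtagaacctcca

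The tyrosine sequence was at 3899 and 3727 RPM in flower and 232 to 555 RPM elsewhere, with a log2 difference of 3.27 (SE 0.18, limma adjusted p = 6.75e-07). The tryptophan sequence was at 354 and 328 RPM in flower and 13.7 to 60.6 RPM elsewhere (3.58, SE 0.41, limma adjusted p = 2.49e-04), and the glutamine sequence at 408 and 377 RPM against 23.1 to 61.7 RPM (3.21, SE 0.34, limma adjusted p = 1.53e-04). All 3 had no overlap between flower and the vegetative libraries, which was a condition for the greatest gains. The tyrosine sequence matched 2 tRNAs equally well and the tryptophan sequence 3. In the 5′ classes, sequences with the mismatch at base 9 were 1.13% of the signal in both flower libraries and 0.488% to 0.909% in the others. Those with it at base 26 were 0.449% and 0.452% in flower and 0.113% to 0.258% in the others. Whether the share of misread sequences moves with the level of a modification or with reverse transcription was not tested.

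For the 2 most abundant fragment sources, the share of 36-nt fragments placed flower between rosette leaf and the stem tissues. Of the mismatch-free 5′ fragments of Glu-TTC at_tR77, those of 36 nt were 15.1% and 14.8% in flower, 8.72% and 8.27% in rosette leaf, 29.1% and 28.8% in stem leaf, and 42.9% and 41.7% in stem. Those of 33 nt were the largest class in flower, at 32.4% and 32.1%, and were 29.2% and 29.4%, 24.1% and 24.0%, and 17.97% and 18.8% in the same order, so at this length flower was highest. For Gly-TCC at_tR92 the 36-nt fragments were 10.9% ± 0.136 in flower (SD, n = 2), 2.88% and 2.91% in rosette leaf, 19.4% and 18.5% in stem leaf, and 24.2% and 23.6% in stem. In both tRNAs flower was above rosette leaf and below both stem tissues at 36 nt, with no overlap between libraries of different tissues.

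Other tRNAs differed from that order. In Glu-CTC at_tR74, 5′ fragments of 34 nt and longer were least frequent in flower, at 84.4% ± 1.09 (SD, n = 2) against means of 94.7%, 92.1% and 91.6% in rosette leaf, stem leaf and stem. In Tyr-GTA at_tR206 the 36-nt fragments were 8.31% and 8.10% of 5′ fragments in flower and 1.84% to 4.59% in the vegetative libraries, while the 20-nt fragments made up 64.9% and 64.1% in flower. In aspartate at_tR44 the 35-nt fragments were 82.8% and 83.6% in flower and 51.7% to 74.7% elsewhere. Flower was thus highest at these lengths in both tyrosine and aspartate tRNAs. In histidine at_tR94 the 36-nt fragments were 39.6% and 38.8% in flower, close to 37.9% and 38.1% in stem leaf, and 16.4% and 14.4% in rosette leaf, where the 31-nt fragments led with 42.2% and 49.01%. These length profiles were not tested beyond the spread between libraries.

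**Figure D5:**
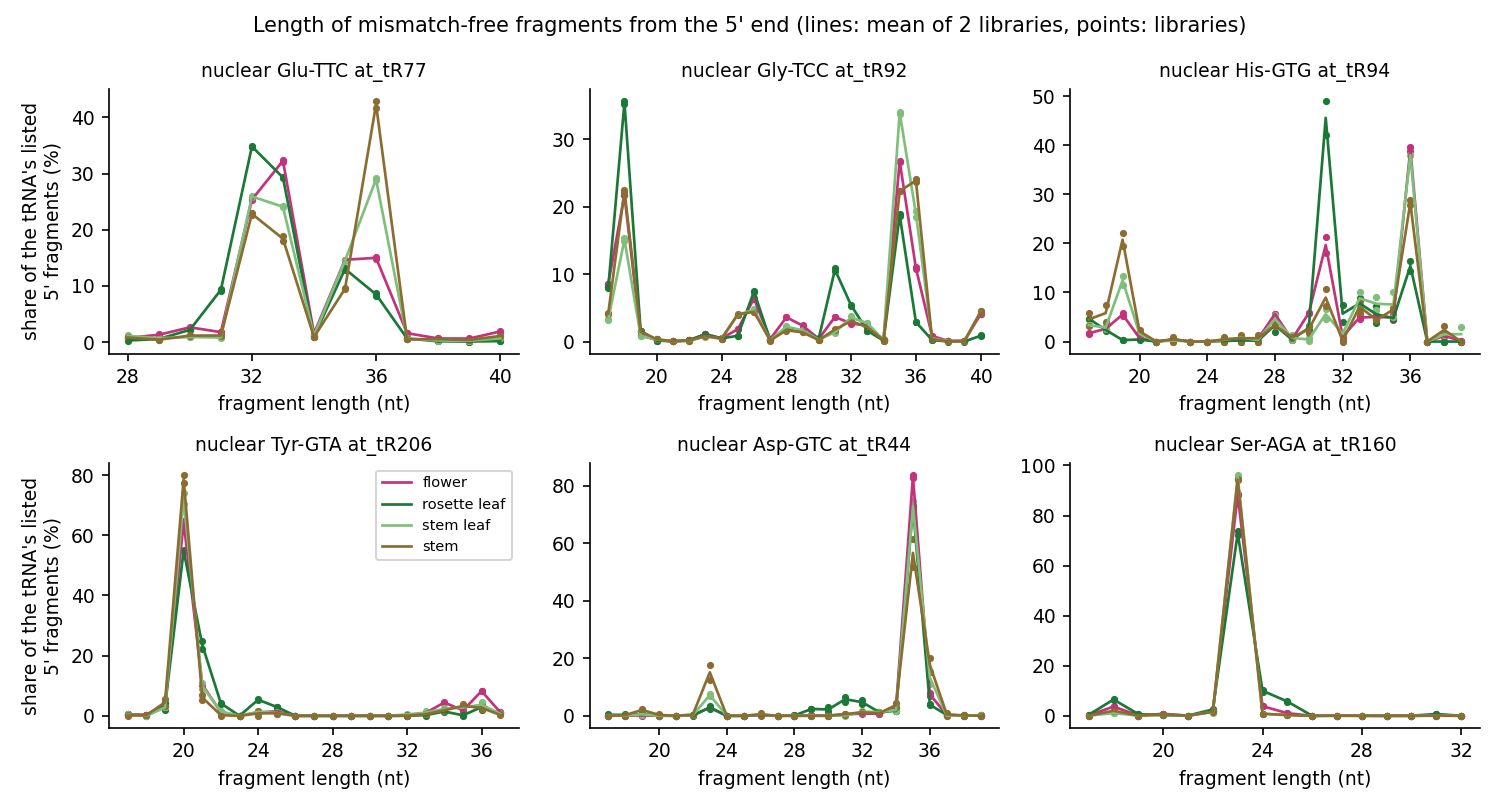
Length profile of mismatch-free 5′ fragments of 6 nuclear tRNAs, as percent of each tRNA's listed 5′ fragments at each length in nt, with lines for the mean of 2 libraries per tissue and points for the libraries. Flower lies between rosette leaf and stem at 36 nt for Glu-TTC and Gly-TCC, and has the highest 36-nt share for Tyr-GTA and the highest 35-nt share for Asp-GTC.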

How the data were processed

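Small RNA libraries of Arabidopsis were measured as tRNA signal, tRF totals per tRNA and individual tRFs. Per the file headers, the authors deposited log2 values of RPM plus an offset of 1. The values were instead whole reads (tolerance 0.05) in every library with an offset of 0.5 in both per-tRNA tables and of 1 for individual tRFs, and these offsets were used. The submitters' processing notes name cutadapt and TAIR10; the sources used here name no aligner and no handling of shared reads. Coordinates were raised by 1 from the deposited starts, which count from 0, and sequences were matched to TAIR10.1: of 598 nuclear loci 514 matched exactly and 77 with an intron. Locus names come from that annotation.

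From there, log2(RPM + 1) was fitted for features that averaged 1 RPM or more over the 10 Arabidopsis libraries, with limma 3.58.1 (trend, 5 tissue means, Benjamini-Hochberg adjustment, threshold 0.05), with R 4.3.3. tRNAs with identical values were joined. A call against each tissue used the largest of 3 pairwise p, adjusted over the features tested. The named features were the 8 with the greatest change per direction, the 5 most abundant in flower and the most abundant of each list. The 8 needed a mean of at least 10 RPM, a call against each tissue and no overlap between flower and vegetative libraries. For these features the lack of overlap is thus not a separate finding. Shares were compared by exact permutation tests. Members, lists and tests were chosen with earlier results of these data known.

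Replicates differed by more than sampling noise (chi-square per degree of freedom 2.27 to 3.49). They are called biological replicates, but whether they came from separate plants is not stated, so p-values measure the spread between these libraries. Deviations of same-numbered libraries correlated at -0.16 to 0.20 and did not pair them. On simulated data, 2-fold changes were called for 95.7% of 23 changed tRF totals and 55.0% of 20 changed tRNA signals. They were called for 15.0% of 100 changed individual tRFs. These rates hold for the simulated data only and are not the sensitivity of the comparison between tissues. Alternatives were other pseudocounts and filters, median centring, nuclear features alone, the same total for every library, no trend and leaving out each library. Others were a replicate block, the 8 libraries alone, fragments without a mismatch and, chosen after seeing the data, voom weights on the recovered reads.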

Additional observations from a re-analysis of the deposited data

How the results depend on the processing

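The number of calls changed with the scaling and, for individual tRFs, with the trend, the weights, the pseudocount and the flower libraries used. Median centring left 17 higher and 39 lower tRNA signals (2 and 18 against each tissue), 27 higher and 31 lower tRF totals against each tissue, and 135 higher and 257 lower individual tRFs (9 higher against each tissue). With nuclear features alone, rescaled, tRNA signals were 18 higher and 11 lower (6 and 2 against each tissue), tRF totals 24 and 11 against each tissue, and individual tRFs 158 and 40 (26 and 5 against each tissue). These fits test fewer features. With voom weights on recovered reads, tRNA signals were 124 higher (25 higher and 11 lower against each tissue) and individual tRFs 880 higher and 413 lower (116 and 65). Without the trend, individual tRFs were 118 higher and 63 lower, and limma called 0 against each tissue, where 195 were higher and 66 lower at an unadjusted p under 0.05. A pseudocount of 5 gave 527 higher individual tRFs. With the 8 libraries alone 10 tRNA signals were lower than each tissue. Rescaled to the same total in every library, tRNA signals were 73 higher and 18 lower (21 and 8 against each tissue). The median log2 difference of tRNA signal was then 1.31 against rosette leaf and 1.18 against stem, from 2.14 and 0.52 before.

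Leaving out each library gave 50 to 87 higher, 15 to 18 lower, 10 to 18 higher-than-each and 6 lower-than-each tRNA signals. It gave 95 to 119, 43 to 56, 31 to 46 and 18 to 21 tRF totals, and 91 to 364, 76 to 163, 23 to 42 and 22 to 33 individual tRFs. With a replicate block the counts were 75, 18, 15 and 7 tRNA signals, 117, 52, 46 and 21 tRF totals, and 362, 162, 50 and 37 individual tRFs, all within 1.5 times the counts without the block. The tRF-3 share difference turned from -1.53 to 0.106 percentage points with nuclear fragments alone. The 3'-halves difference turned to -0.17 without mismatched fragments. The Gly-TCC at_tR92 total and its 35-nt fragment turned to -0.041 and -0.11 on the log2 scale after median centring. The cause of these changes was not tested.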
